A study of Drosophila melanogaster with 6 samples.

Results

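In eye discs under endoplasmic reticulum (ER) stress, 194 genes that the deposited tables list only by an annotation number (CG followed by digits) had more RNA than in WT discs. They were selected on their measured levels in the same 6 libraries, in CPM (counts scaled to a common library total, with symbols for ribosomal RNA left out of the total). A member averaged at least 5 CPM in the GMR>Rh-1G69D libraries and at least 2 times its WT mean, and its lowest GMR>Rh-1G69D library lay above its highest WT library. The table listed 17433 gene symbols, 6958 of them CG numbers once CG2918 was set aside. Of these, 3169 reached 5 CPM, 274 also reached the ratio, and 80 of the 274 were lost because the genotypes overlapped. The members were 6.12% of the CG-number genes at that level, and 488 of all 8487 genes at that level, named ones included, met the same conditions (5.75%). Since the values that chose the members are those compared, their difference between the genotypes is given as a description with no test.

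Nuclear RNA of eye imaginal discs from Drosophila melanogaster larvae, late in the third instar, was sequenced in 3 GMR>Rh-1G69D and 3 WT samples. The GMR>Rh-1G69D discs carried GMR-GAL4 with uas-Rh-1G69D, a misfolding form of the visual pigment Rhodopsin-1, and with uas-EGFP::Msp300-KASH, a tag of the nuclear envelope. The WT discs carried GMR-GAL4 and the same tag without the rhodopsin transgene, so driver and tag were common to both genotypes. GMR-GAL4 is active in the disc behind the morphogenetic furrow, in photoreceptors and in undifferentiated cells alike, and the tagged nuclei were pulled down with anti-EGFP from pools of larvae. In such bulk samples, fewer cells of a type and less RNA per cell cannot be told apart.

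Misfolded protein in the ER activates the unfolded protein response, in which the sensors PERK, Ire1 and Atf6 slow protein synthesis and raise genes for chaperones, translocation, degradation of misfolded protein and redox balance. A CG number is what a Drosophila gene is called after its prediction from the genome, until someone names it. The members therefore share a state of annotation and not a function. In current RefSeq and Ensembl annotation all 194 were matched and all were protein coding, and 45 had another name by which they are grouped below.

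The libraries held between 21773452 and 25320418 counts in GMR>Rh-1G69D samples and between 22169330 and 30884519 in WT samples. Rhodopsin-1 is encoded by ninaE, and reads of the transgene and of the native gene are not separated. It had 179, 213 and 272 CPM in GMR>Rh-1G69D libraries, against 3.23, 43.2 and 2.65 CPM in WT libraries, where replicate 2 stood above the others. Some markers of cell types differed between the genotypes and others did not. Of 9 photoreceptor and eye genes, 7 were lower by edgeR's quasi-likelihood test (gl, sev, ro, lz, chp, eya and so), and the summed level of the list was 5469 to 8608 CPM in GMR>Rh-1G69D libraries and 8656 to 11330 CPM in WT libraries. Most of that sum came from pros (mean 4820 CPM in GMR>Rh-1G69D and 6030 CPM in WT) and elav (1362 and 1845 CPM), which were not called. Hemocyte markers summed to 295 to 332 CPM in GMR>Rh-1G69D and 125 to 166 CPM in WT, with 1 of 5 higher (Hml). Muscle markers summed to 445 to 722 CPM in GMR>Rh-1G69D and 236 to 322 CPM in WT, with 2 of 4 higher (Mhc and Act57B). None of 4 glial markers passed the test (237 to 309 CPM in GMR>Rh-1G69D and 179 to 242 CPM in WT). Of 4 antennal markers, 1 was lower (dan). Across all 11818 genes tested, 1.24% were called higher and 3.72% lower at an adjusted p under 0.05. The part of these cell types in the members' levels was not tested.

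Most members stood close to the required ratio. The ratio of mean CPM lay between 2 and 2.5 in 113 members, between 2.5 and 3 in 35, between 3 and 5 in 27 and between 5 and 10 in 9, and it was 10 or more in 8. For the remaining 2, every WT library was at 0. The median ratio was 2.39 with those 2 set at their lower bound. In 62 members the lowest GMR>Rh-1G69D library was at least 1.5 times the highest WT library, and in 21 it was at least 2 times. On the log2 scale of edgeR the members' median fold change was 1.14, beside 0.04 over all genes tested and 0.11 over the other 2975 CG-number genes at the level floor. Of the members, 36 were called higher by edgeR, against a background of 1.24%. The rule and the test used the same contrast, so nothing is read from that count. Without WT replicate 3 it was 126, in a fit that called 1305 of all 12206 genes tested higher. Without each other library in turn it was 14 to 19, in fits that called 54 to 68 of all genes tested higher.

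**Figure D1:**
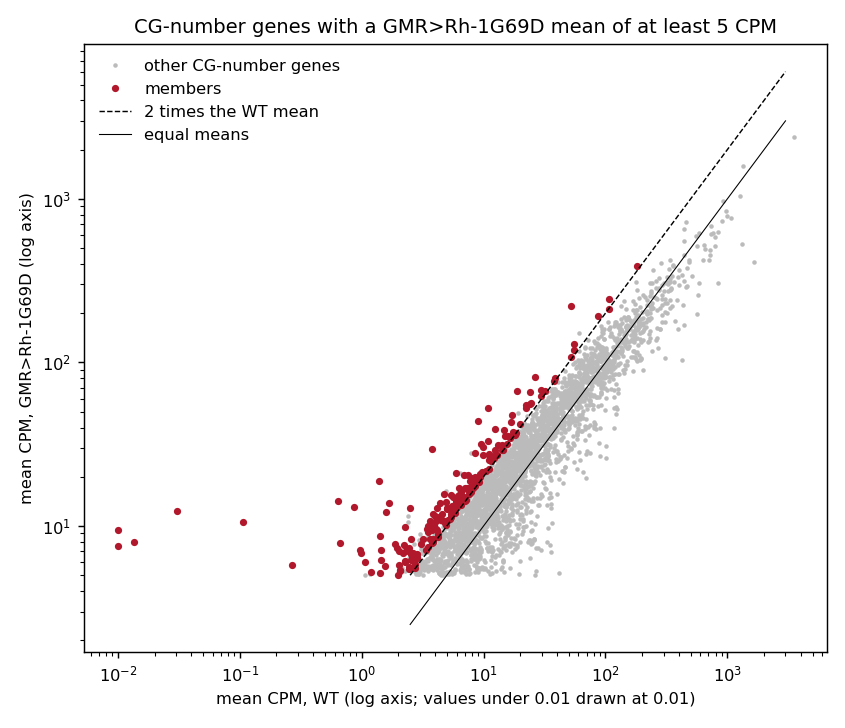
Mean CPM in GMR>Rh-1G69D libraries (vertical, log axis) against mean CPM in WT libraries (horizontal, log axis) for the CG-number genes with a GMR>Rh-1G69D mean of at least 5 CPM; each point is 1 gene and means are over 3 libraries. The 194 members (red) lie on or above the dashed line at 2 times the WT mean, most of them close to it, and grey points above the line are genes whose genotypes overlapped.

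Genes just inside and just outside each limit had nearly the same values. CG6180 was a member at 213 CPM in GMR>Rh-1G69D and 107 CPM in WT (ratio 2.00), as were CG13272 and CG8206 (both 2.01), whereas CG31549, CG33494 and CG15601 (each 1.99) were not. At the level floor, CG42359 (5.05 CPM), CG13227 (5.13 CPM) and CG5867 (5.24 CPM) were in and CG11594 (4.99 CPM), CG14298 (4.93 CPM) and CG9372 (4.89 CPM) were out. CG18336 had a lowest GMR>Rh-1G69D library and a highest WT library that were both at 4.68 CPM and was kept, CG15478 and CG31950 were kept as narrowly, and CG8888, CG4789 and CG13364 were left out.

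Among members with a current name, 8 encode proteins of the ER and the secretory route. The ratio of mean CPM in this group was 2.05 to 4.28 with a median of 2.33, beside 2.37 for the 149 members with no other name, so the group did not stand apart by its ratio. CG10420 (Sil1), the nucleotide exchange factor of the ER chaperone BiP, had 27.6, 24.4 and 38.9 CPM in GMR>Rh-1G69D libraries and 8.51, 6.33 and 14.6 CPM in WT libraries. CG6746 (Hacd1), a dehydratase of fatty acid elongation at the ER membrane, had 63.6, 64.3 and 38.4 CPM in GMR>Rh-1G69D libraries and 18.1, 20.2 and 33.8 CPM in WT libraries. In Hacd1 the third GMR>Rh-1G69D library was only a little above the third WT library, whereas in Sil1 the gap was wide.

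CG11137 (EMC4) encodes a subunit of the ER membrane protein complex, which inserts membrane proteins with several spans such as rhodopsin. It had 28.8, 28.5 and 30.5 CPM in GMR>Rh-1G69D libraries and 7.54, 7.64 and 22.1 CPM in WT libraries, so that most of its spread lay in WT. CG9853 (Get4), of the route by which tail-anchored proteins reach the ER, had 40.8, 28.6 and 26.2 CPM in GMR>Rh-1G69D and 10.9, 10.3 and 25.5 CPM in WT. CG8331 (ReepB), of a family that shapes ER tubules, had 81.5, 131 and 114 CPM in GMR>Rh-1G69D and 42.1, 35.3 and 80.5 CPM in WT. In all 3 of these genes WT replicate 3 was the highest WT library, and in Get4 and ReepB it was just under the lowest GMR>Rh-1G69D library.

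CG17843 (Qsox2), a sulfhydryl oxidase that forms disulfide bonds, had 16.8, 20.1 and 15.0 CPM in GMR>Rh-1G69D libraries and 6.26, 7.32 and 9.89 CPM in WT libraries. CG7787 (strat), which acts with Rab8 in polarized secretion, had 32.9, 30.0 and 18.3 CPM in GMR>Rh-1G69D and 7.90, 10.5 and 15.0 CPM in WT. CG2023 (Sec20), a SNARE of transport back to the ER, had the largest ratio of the group (4.28) but at a low level, with 10.5, 3.95 and 4.20 CPM in GMR>Rh-1G69D and 1.69, 0.955 and 1.71 CPM in WT. Its GMR>Rh-1G69D mean rested largely on replicate 1. A transposon annotation shares 1107 bases of its exons.

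Members grouped with the mitochondrion by their names numbered 7. Their median level in FPKM (fragments scaled to gene length and library total) was 41.1 over the GMR>Rh-1G69D libraries, against 11.1 FPKM over all members. CG11267 (Hsp10), the cochaperonin of the mitochondrial chaperonin Hsp60, was the most abundant member at 550 FPKM on average in GMR>Rh-1G69D and 262 FPKM in WT. It had 367, 490 and 303 CPM in GMR>Rh-1G69D libraries and 108, 189 and 247 CPM in WT libraries. CG7630 (COX7B), a small subunit of cytochrome c oxidase, followed at 261 FPKM in GMR>Rh-1G69D and 113 FPKM in WT. Its libraries had 144, 148 and 94.5 CPM in GMR>Rh-1G69D and 34.2, 55.7 and 75.1 CPM in WT.

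CG41128 (Minos1b), related to a membrane-shaping protein of the mitochondrial cristae, had 68.5, 37.3 and 37.7 CPM in GMR>Rh-1G69D and 14.9, 15.0 and 21.4 CPM in WT. The small subunits of the protein import pore of the outer membrane, CG32267 (Tom5) and CG34200 (Tom6), were at 17.1 ± 1.12 and 15.7 ± 0.726 CPM in GMR>Rh-1G69D, against 7.06 ± 3.91 and 7.64 ± 3.73 CPM in WT (SD, n = 3 each). Their GMR>Rh-1G69D libraries were nearly equal and their WT libraries were not. CG4866 and CG34229 were placed in the group only by names that RefSeq lists for them, mRpS4 and Sdh6. Whether their proteins act in the mitochondrion was not examined. They had ratios of 3.29 and 2.28 at 19.1 and 11.2 FPKM in GMR>Rh-1G69D, the lowest levels of the group. Of the groups by name, the mitochondrial one also had the shortest transcripts, with a median exon length of 474 bases, against 1070 bases over all members.

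Enzymes of redox balance and metabolism numbered 9, with a median ratio of 2.38. Their most changed gene was CG6140 (Fum3), a fumarase, which is given below with the genes nearly absent from WT. CG6523 (Grx3), a glutaredoxin, had 66.7, 58.7 and 76.6 CPM in GMR>Rh-1G69D libraries and 21.9, 20.3 and 53.4 CPM in WT libraries. CG9471 (BVR), a biliverdin reductase, had 23.0, 15.4 and 16.1 CPM in GMR>Rh-1G69D and 5.08, 6.82 and 13.2 CPM in WT. CG2862 (HINT1), of the histidine triad nucleotide hydrolases, was the most abundant of the group at 142 FPKM in GMR>Rh-1G69D and 65.8 FPKM in WT. In Grx3, BVR and HINT1 alike, WT replicate 3 was more than 1.5 times each other WT library, and still below every GMR>Rh-1G69D library.

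CG2254 (Ldsdh1), a dehydrogenase of lipid droplets, had 6.72, 8.44 and 2.82 CPM in GMR>Rh-1G69D libraries and 0.975, 0.212 and 2.00 CPM in WT libraries. CG10527 (FAMeT), named as a farnesoic acid O-methyltransferase, had 26.0, 34.0 and 34.1 CPM in GMR>Rh-1G69D and 10.7, 9.12 and 19.6 CPM in WT. CG31548 (DHRS4), CG34261 (Targ3) and CG2277 (Nt5a) had ratios of 2.64, 2.68 and 2.16. Of these, Targ3 and Nt5a were uneven among GMR>Rh-1G69D libraries, Targ3 with replicate 2 at 10.8 CPM beside 4.62 and 4.95 CPM, and Nt5a with replicate 2 at 6.78 CPM beside 15.0 and 13.6 CPM.

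**Figure D2:**
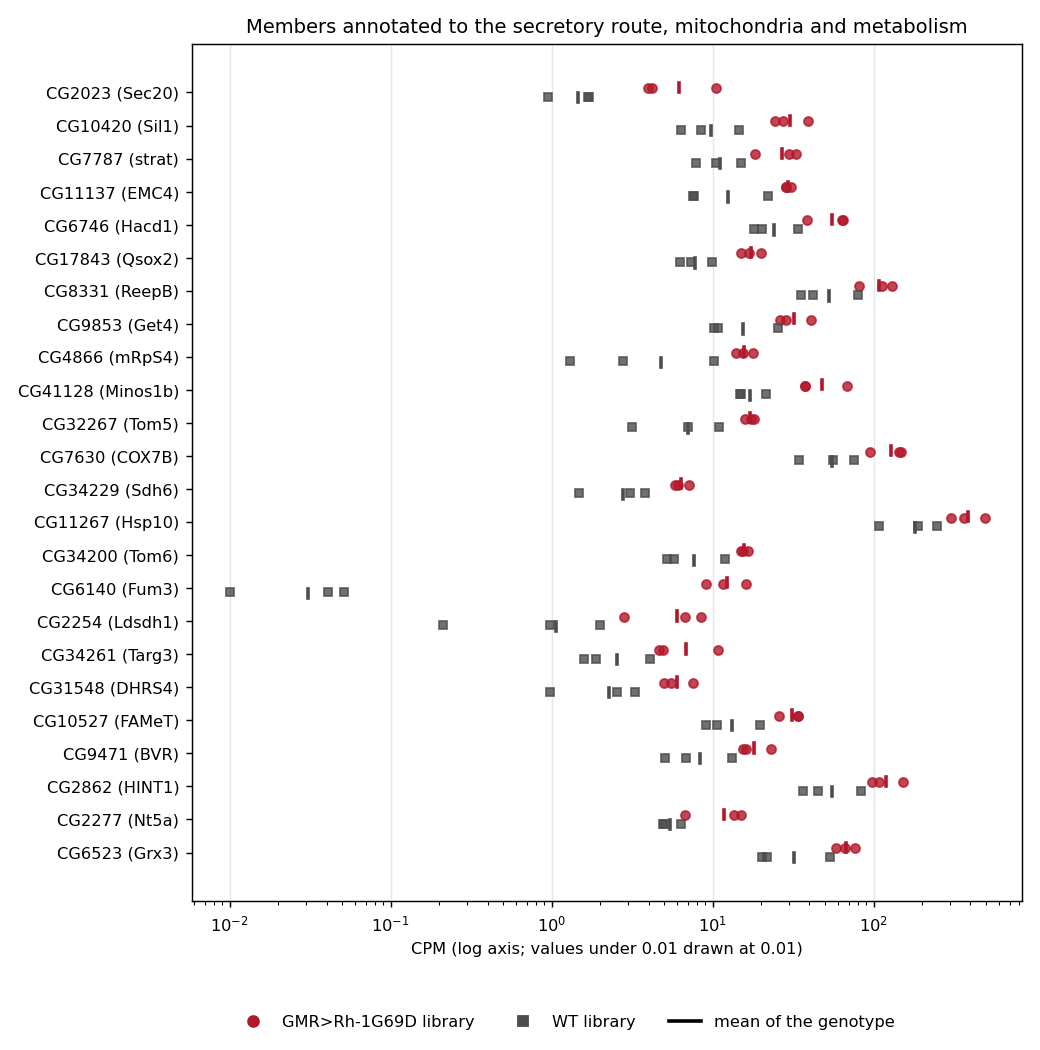
CPM (log axis) in each GMR>Rh-1G69D library (red circles) and each WT library (grey squares) of the 24 members named for the ER and secretory route, the mitochondrion, or redox and metabolism, with short bars at the mean of 3 libraries. In each row the red circles lie to the right of the grey squares, as the selection required, and the rightmost grey square is often close to the leftmost red circle.

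Members grouped by their names as RNA and ribosome factors also numbered 8, with ratios of 2.02 to 2.83. Whether each of them acts on RNA or the ribosome was not examined. CG12343 (Syf2), a splicing factor, had 26.2, 16.6 and 19 CPM in GMR>Rh-1G69D libraries and 2.51, 5.73 and 14.2 CPM in WT libraries. CG11583 (dBRX1), of a family of large ribosomal subunit assembly factors, had 27.2, 31.0 and 35.6 CPM in GMR>Rh-1G69D and 11.4, 10.9 and 20.3 CPM in WT. CG8273 (Son), a splicing cofactor, was at 55.3, 28.1 and 29.3 CPM in GMR>Rh-1G69D and 18.7, 10.3 and 23.5 CPM in WT. None of the 8 was among the 36 of 194 members called by edgeR (1.24% of all genes tested were called higher). With 8 genes, nothing is read from that count. The others were CG14701 (Dph3, of diphthamide synthesis), CG5013 (METTL23), CG31950 (Sbat), CG11837 (Dim1, an RNA dimethyltransferase) and CG3909 (ski8, of the SKI complex that feeds RNA to the exosome), with ratios of 2.83, 2.49, 2.44, 2.14 and 2.02.

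Members named as secreted proteins were few. CG11852 (Jhbp7) and CG5867 (Jhbp14), of the family of juvenile hormone binding proteins, had ratios of 4.35 and 4.39 at low levels. Jhbp7 had 7.60, 13.8 and 8.19 CPM in GMR>Rh-1G69D libraries and 0.923, 0.495 and 5.37 CPM in WT libraries, the highest of these in replicate 3. The serine proteases and their inactive homologues CG33459 (SP238), CG4793 (SPH208), CG33465 (SPH) and CG3355 (SP21) had ratios of 3.62, 2.40, 2.21 and 2.12. SPH208 was at 20.3, 7.10 and 5.43 CPM in GMR>Rh-1G69D and 5.18, 4.31 and 4.19 CPM in WT, so its ratio rested on GMR>Rh-1G69D replicate 1. Of the 3 membrane proteins, CG42235 (kumpel), a glial transporter of the sodium solute family, CG7888 (SLC36), of an amino acid transporter family, and CG8111 (Tmem43), of the nuclear envelope, had ratios of 2.52, 2.13 and 2.08. A further 4 members had a name that is given without a role here, CG9701 (klotho), CG2010 (FipoQ), CG14880 (js) and CG31235 (naz), with ratios of 7.33, 5.23, 4.18 and 2.43.

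A small set of members was almost without counts in WT. CG5107 (3R, 25505191 to 25505931, plus strand) had 194, 163 and 198 counts in GMR>Rh-1G69D libraries and 0 in each WT library, which is at least 227-fold higher against a floor of 3 counts over the pooled WT libraries. CG17732 (3L, 19981685 to 19984191, plus strand) had 59, 261 and 112 counts in GMR>Rh-1G69D and 0 in each WT library, at least 177-fold higher by the same floor. CG5107 was nearly equal among the GMR>Rh-1G69D libraries, at 9.43 ± 0.974 CPM, and CG17732 was not, at 7.55 ± 5.76 CPM (SD, n = 3 each).

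CG7551 (3L, 11458490 to 11459625, plus strand) had 139, 188 and 139 counts in GMR>Rh-1G69D libraries and 0, 0 and 1 in WT libraries. The pooled rate was 572 times that of WT, with a 95% exact counting interval of 102 to 22630. Its neighbour CG6140 (Fum3; 3L, 11463570 to 11465864, minus strand) had 195, 216 and 304 counts in GMR>Rh-1G69D and 1, 0 and 1 in WT, a ratio of pooled rates of 439 with an interval of 121 to 3629. No other annotated gene lies within the 7375 bases that the pair spans, in which both genes were high in every GMR>Rh-1G69D library.

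CG5111 (3R, 25506275 to 25508279, plus strand) had 113, 301 and 196 counts in GMR>Rh-1G69D libraries and 0, 9 and 0 in WT libraries. It lies next to CG5107 on the same strand, with no other gene within the 3089 bases of that pair. Its ratio of pooled rates was 83.2, with an interval of 43.5 to 183, and all WT counts came from replicate 2. These intervals and floors cover counting error only.

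Further members with ratios of 7 or more had a measurable WT level. CG14545 had 6.67, 13.8 and 22.3 CPM in GMR>Rh-1G69D libraries and 0.0513, 0.884 and 0.977 CPM in WT libraries, a ratio of 22.4. CG9313 had 15.4, 12.4 and 28.8 CPM in GMR>Rh-1G69D and 1.54, 1.03 and 1.63 CPM in WT, a ratio of 13.5. CG6912 had 28.8, 32.0 and 27.6 CPM in GMR>Rh-1G69D and 4.77, 2.37 and 4.11 CPM in WT, a ratio of 7.85. Of these 3, CG6912 was the most even among the GMR>Rh-1G69D libraries. In CG14545 replicate 1 of GMR>Rh-1G69D was at most 0.5 times each other GMR>Rh-1G69D library.

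That low replicate 1 recurred. CG6362 had 6.16, 19.4 and 13.7 CPM in GMR>Rh-1G69D libraries and 1.28, 0.212 and 1.10 CPM in WT libraries. CG1077 had 3.54, 9.02 and 11.1 CPM in GMR>Rh-1G69D and 0.410, 0.460 and 1.14 CPM in WT. CG17104 had 6.25, 13.2 and 17.1 CPM in GMR>Rh-1G69D and 1.54, 0.672 and 2.57 CPM in WT. CG17732 and CG5867 (Jhbp14) made up the 6 members of this pattern, and 5 of the 6 were among those with a ratio of 7 or more. CG15408 (ratio 21.4) was instead highest in GMR>Rh-1G69D replicate 2, and CG13707 (ratio 8.22) lowest in replicate 3.

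**Figure D3:**
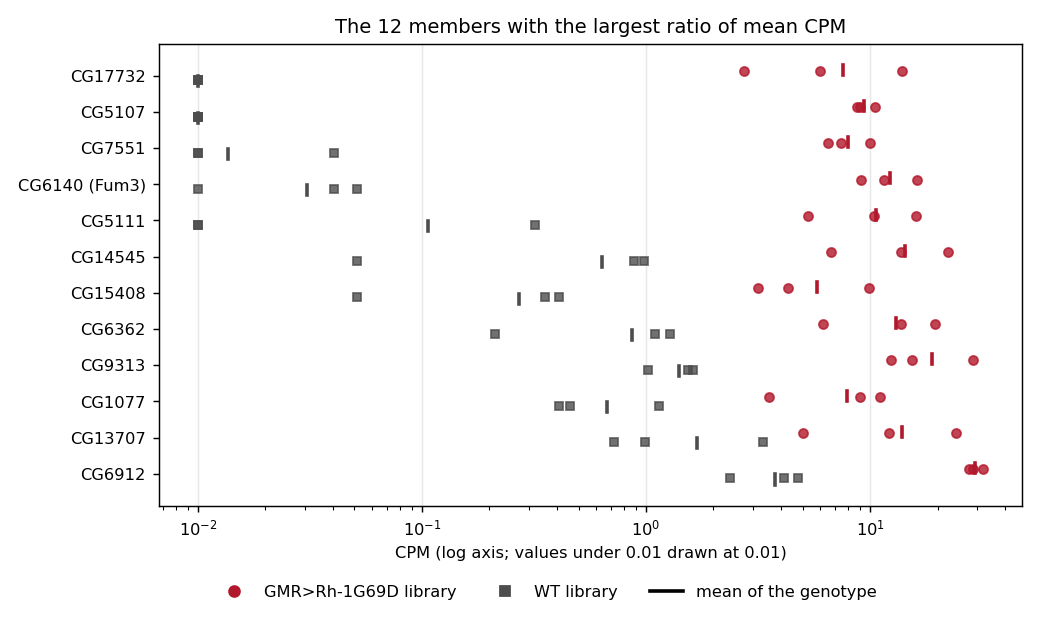
CPM (log axis) in each GMR>Rh-1G69D library (red circles) and each WT library (grey squares) of the 12 members with the largest ratio of mean CPM, with short bars at the mean of 3 libraries and values under 0.01 drawn at 0.01. The top rows have WT squares at or near the left edge (0 counts in every WT library for CG17732 and CG5107), and the spread of the red circles is narrow for CG5107 and CG6912 and wide for CG17732, CG13707 and CG15408.

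Per gene length, 10 members reached a mean of 100 FPKM or more in GMR>Rh-1G69D libraries, and 88 were under 10 FPKM. Of these 10, 6 have no other name. CG6180 was at 176 FPKM in GMR>Rh-1G69D and 88.0 FPKM in WT, CG15098 at 170 FPKM in GMR>Rh-1G69D and 77.8 FPKM in WT, and CG9021 at 148 FPKM in GMR>Rh-1G69D and 65.8 FPKM in WT. CG15098 was even among GMR>Rh-1G69D libraries, with 191, 201 and 185 CPM, and had 68.1, 83.5 and 107 CPM in WT libraries. CG9021 had 167, 234 and 335 CPM in GMR>Rh-1G69D and 91.7, 81.0 and 148 CPM in WT, so GMR>Rh-1G69D replicate 1 was close to WT replicate 3. CG6180 had 189, 222 and 229 CPM in GMR>Rh-1G69D and 64.0, 75.7 and 180 CPM in WT, where replicate 3 lay nearer to the GMR>Rh-1G69D libraries than to the other WT libraries.

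The other 3 were short genes, CG15353, CG15201 and CG17738, with spans of 431, 690 and 411 bases and means of 127, 115 and 136 FPKM in GMR>Rh-1G69D, against 25.4, 32.8 and 49.7 FPKM in WT. CG15353 had 36.7, 67.2 and 54.1 CPM in GMR>Rh-1G69D libraries and 6.05, 2.40 and 24.0 CPM in WT libraries. CG15201 had 39.0, 94.1 and 66.6 CPM in GMR>Rh-1G69D and 16.2, 14.3 and 26.0 CPM in WT. CG42319 had the largest ratio among members with a GMR>Rh-1G69D mean above 100 CPM, at 216, 270 and 179 CPM in GMR>Rh-1G69D and 52.3, 25.1 and 79.9 CPM in WT (ratio 4.23). It is a long gene by comparison, with 6236 bases, and stood at 52.8 FPKM in GMR>Rh-1G69D.

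Length was a property that the rule did not use. The members' median span, introns included, was 1278 bases, against 2570 bases for the 2974 other CG-number genes at the level floor with a position. The median exon length was 1070 against 1995 bases, and the median intron length 115 against 363 bases. Of the members, 68 (35.1%) spanned at most 1000 bases, against 9.31% of the other genes, and 18 (9.28%) spanned more than 5000 bases, against 28.7%. CG-number genes that were lower in GMR>Rh-1G69D by the mirrored conditions (180 of 3121, or 5.77%, some of them among those other genes) had a median span of 2119 bases, and 20.6% of them spanned at most 1000 bases. The shortest members were CG43117 (319 bases), CG9877 (388 bases) and CG34200 (Tom6, 406 bases), and the longest were CG17193 (19677 bases) and CG42235 (kumpel, 14025 bases).

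The share of CG-number genes that were members fell with span, from 32.4% of 34 genes of at most 500 bases, through 18.3%, 7.57%, 3.75% and 3.05% in the successive classes, to 1.26% of 478 genes over 10000 bases. Genes that were no members moved the same way. Their median log2 fold change was 0.70 in the shortest class, 0.50, 0.34, 0.13 and -0.11 in the next ones, and -0.30 in the longest. The difference between the genotypes thus varied with length among all CG-number genes at the floor, and the part of length in the members' ratios was not tested. These genes were admitted by a floor on the GMR>Rh-1G69D mean alone, and the part of that floor in the trend was not tested either.

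**Figure D4:**
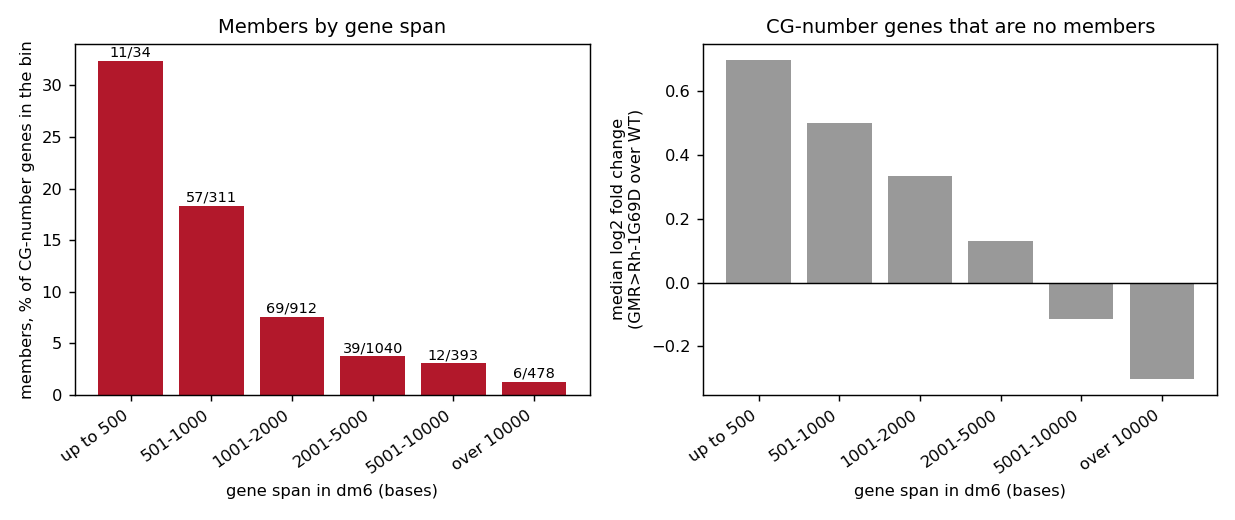
Left, the percentage of CG-number genes with a GMR>Rh-1G69D mean of at least 5 CPM that were members, by class of gene span in bases, with members and genes in each class above the bars. Right, the median log2 fold change (GMR>Rh-1G69D over WT, edgeR) of the genes that were no members in the same classes. Both fall with span, on the left from 32.4% to 1.26%, and on the right from 0.70 to -0.30.

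The members lay on all major arms, 25 on 2L, 42 on 2R, 41 on 3L, 55 on 3R and 31 on X, and none on chromosome 4. Arm 2L held 12.9% of the members, against 17.7% of the other CG-number genes at the floor, and 3R held 28.4% against 24.9%. Within 20 kb of another member lay 36 members in 16 groups, and 158 lay alone. The same count was not made for other CG-number genes, so nothing is read from it. In 5 of the groups, CG7551 with Fum3, CG5107 with CG5111, CG9313 with CG15651, CG10053 with CG1227 and CG11679 with CG8206, no other gene lay in between. CG10053 and CG1227, on opposite strands of 3R between 7247090 and 7249738, had ratios of 2.59 and 2.07, and CG11679 and CG8206, on opposite strands of X between 15737493 and 15740417, had ratios of 2.94 and 2.01.

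The 2 groups with more than a pair held 4 members each. On 3R between 25233636 and 25263292 lay CG10420 (Sil1), CG11852 (Jhbp7), CG11854 and CG11858. CG11854 had 27.7, 43.5 and 61.1 CPM in GMR>Rh-1G69D libraries and 7.64, 8.34 and 11.2 CPM in WT libraries, a ratio of 4.86, and CG11858 had a ratio of 2.21. Of the 6 other genes at the level floor within this stretch, all had a higher mean in GMR>Rh-1G69D and none met the members' conditions. On 3L between 11054035 and 11069864 lay CG7888 (SLC36), CG6321, CG32069 and CG6310, with ratios of 2.13, 3.00, 3.09 and 2.11. Of the 2 other genes at the level floor there, both had a higher mean in GMR>Rh-1G69D and 1 met the members' conditions. Over the whole table, 6203 of 11818 genes tested had a log2 fold change above 0 by edgeR. With so few genes in each stretch, nothing is read from their direction. CG6310 was the most abundant of these by length at 76.2 FPKM in GMR>Rh-1G69D and 36.4 FPKM in WT.

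Exons of another gene overlapped those of 72 members on the other strand (37.1%, against 35.5% of the other CG-number genes) and those of 11 on the same strand (5.67% against 7.03%). The strand setting of the counting is not given in the sources used here, so reads of a gene and of its antisense partner cannot be told apart. CG9313 and CG15651 share 206 exon bases on opposite strands, and CG15651 was at 6.39, 5.13 and 4.31 CPM in GMR>Rh-1G69D libraries and 0.564, 3.71 and 1.95 CPM in WT libraries. CG7888 and CG6321 share 223 bases in the same way. CG6912 shares 20 bases with the noncoding gene asRNA:CR45600, which was itself called higher (log2 fold change 1.87). CG7730 shares 3 bases with Ilp8, a relaxin-like hormone of damaged discs, which was also called higher (log2 fold change 3.19). CG15717 shares 3329 exon bases with MFS10 on the same strand.

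Members inside an intron of another gene were few, 1 on the host's strand and 7 on the other strand (3.61%, against 7.09% of the other CG-number genes). Among genes lower by the mirrored conditions 30.0% lay inside an intron on the other strand. CG17738 lies in an intron of svp, which encodes a nuclear receptor of photoreceptor fate. CG17738 had 38.8, 114 and 44.8 CPM in GMR>Rh-1G69D libraries and 18.9, 21.2 and 31.6 CPM in WT libraries, while its host was lower by edgeR's test (log2 fold change -1.05). CG42590 lies on the other strand in an intron of Sarm (Ect4 in the files), which was called higher at a log2 fold change of 1.06. CG42590 had 5.18, 8.54 and 7.77 CPM in GMR>Rh-1G69D and 1.33, 1.98 and 0.977 CPM in WT.

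Taken as a set, the members had like medians in the GMR>Rh-1G69D libraries (14.5, 15.2 and 14.8 CPM), with sums of 4819, 5710 and 5023 CPM. The WT libraries were less alike, with medians of 4.26, 4.61 and 7.45 CPM and sums of 1541, 1752 and 3009 CPM. WT replicate 3 was the highest WT library in 158 members (81.4%), against 50.6% of the other CG-number genes at the floor and 7.78% of the genes lower by the mirrored conditions. In 55 members it lay nearer to the GMR>Rh-1G69D mean than to the mean of WT replicates 1 and 2. The median ratio was 1.73 over WT replicate 3 alone and 3.05 over the mean of WT replicates 1 and 2. Without WT replicate 3 the conditions were met by 607 genes, 192 of the 194 members among them, and without each other library in turn by 138 to 281 genes. With TMM library sizes in place of library totals, 126 genes met them.

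WT replicate 3 also held more RNA of other larval tissues. Fat body markers (Lsp1alpha, Lsp1beta, Lsp2, Fbp1 and Fbp2) summed to 810 CPM in it, beside 24.3 and 39.9 CPM in WT replicates 1 and 2 and 10.9 to 69.6 CPM in GMR>Rh-1G69D libraries. Salivary gland glue genes summed to 1034 CPM in it, beside 257 and 22.3 CPM in the other WT libraries and 2.80 to 99.9 CPM in GMR>Rh-1G69D libraries. Ribosomal RNA took 20.5% of its counts, against 12.1% and 7.70% in WT replicates 1 and 2 and 14.0% to 18.6% in GMR>Rh-1G69D libraries. The part of these in the members' WT levels was not tested.

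**Figure D5:**
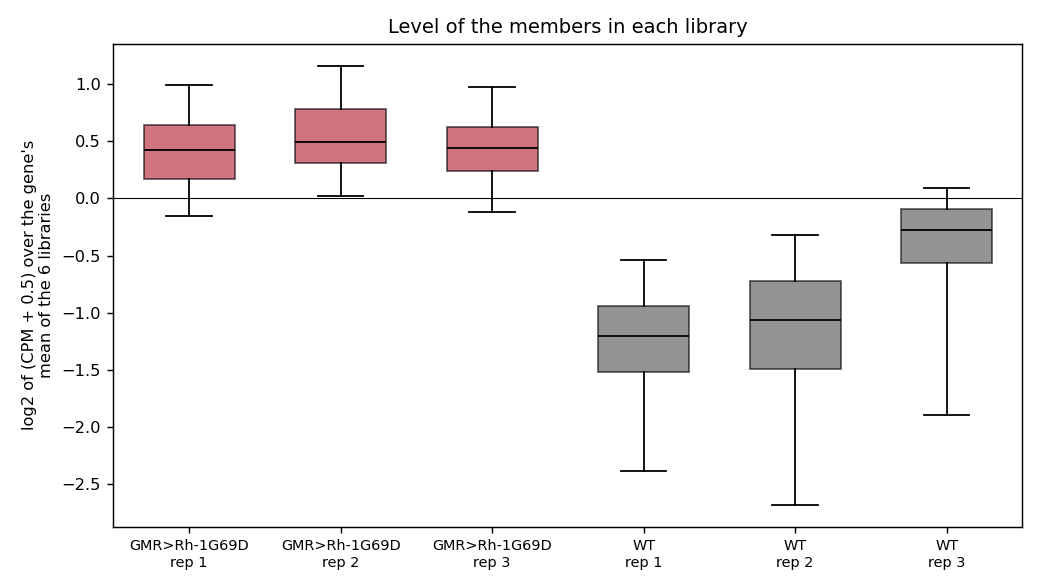
Level of the 194 members in each library, as log2 of (CPM + 0.5) over the gene's mean of the 6 libraries; boxes span the quartiles with a line at the median, and whiskers run between the 5th and 95th percentiles. The 3 GMR>Rh-1G69D libraries have medians of 0.43, 0.49 and 0.44, and WT replicate 3 (-0.28) lies between them and WT replicates 1 and 2 (-1.20 and -1.06).

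Gene by gene, the members were less even among GMR>Rh-1G69D libraries than the other CG-number genes at the floor. The members' median coefficient of variation of FPKM was 0.234, against 0.18. The rule chose members on levels in these same libraries, and 1 high library can raise a mean. The comparison is therefore a description, and the part of the selection in it was not tested. The FPKM of the GMR>Rh-1G69D libraries had a coefficient of variation within 0.3, the limit that the study's methods set, in 135 members (69.6%), against 78.1% of the other CG-number genes at the floor. One GMR>Rh-1G69D library was at least 2 times both others in 17 members, replicate 2 in 11 of them and replicate 1 in 6. The same was not counted over other genes. CG16989 had 36.9, 173 and 34.0 CPM in GMR>Rh-1G69D libraries and 22.9, 25.0 and 31.1 CPM in WT libraries, so that apart from replicate 2 its genotypes nearly met. CG2059 was similar, with 15.8, 52.5 and 15.7 CPM in GMR>Rh-1G69D and 6.10, 7.78 and 11.6 CPM in WT. CG6753 was high in replicate 1, with 13.3, 3.63 and 3.67 CPM in GMR>Rh-1G69D and 0.975, 0.177 and 1.83 CPM in WT. At the even end were CG11137 (EMC4), CG6984 and CG6610, with coefficients of 0.0104, 0.0195 and 0.0228.

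The pathway that Rh-1G69D is used to activate was read from a list of 46 named genes of the unfolded protein response and of PERK and Xrp1 signalling, none of them a member. Under the listed symbols 44 were found and tested, and Dilp8, which the files call Ilp8, and keap1, which they call Keap1, were not counted. Ilp8 was called higher by edgeR (log2 fold change 3.19) and is left out of the counts below. The list was drawn up with earlier results of these data known. It holds genes that the paper reported from them, such as GstD1, Sod2 and Jafrac1, so its counts are a description and no independent support. Of the 44, 6 were higher and 1 lower by edgeR's test at an adjusted p under 0.05, beside 1.24% and 3.72% of all genes tested. Among those not called were Hsc70-3, Xbp1, crc, Herp and Pdi (log2 fold change 0.49, 0.41, 0.15, 0.17 and 0.33). Sod2, Jafrac1 and GstD9 (0.76, 0.82 and 0.97) were not called either. The paper, which compared the genotypes with DESeq2, reported them as induced, Sod2 and Jafrac1 also by qRT-PCR. The list's median log2 fold change was 0.34, beside 0.04 over all genes tested, with 33 of 44 above 0. The genes higher were GstD1 (log2 fold change 8.15), ImpL3 (4.58), GstD3 (3.79), GstD10 (3.66), BI-1 (1.01) and Sec61beta (0.84). GstD1, GstD3 and GstD10 encode glutathione S-transferases, ImpL3 lactate dehydrogenase, BI-1 an inhibitor of cell death at the ER, and Sec61beta a subunit of the translocon.

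GstD1 had 379, 435 and 412 CPM in GMR>Rh-1G69D libraries and 1.44, 0.778 and 1.75 CPM in WT libraries. BI-1 had 84.4, 85.3 and 95.2 CPM in GMR>Rh-1G69D and 35.1, 33.2 and 52.3 CPM in WT. The single gene lower was the death inducer hid (log2 fold change -1.15), with 98.6, 130 and 129 CPM in GMR>Rh-1G69D and 279, 263 and 173 CPM in WT. Without WT replicate 3 the number of list genes higher was 18, in a fit that called 1305 of all 12206 genes tested higher. The call of hid was lost without any 1 of GMR>Rh-1G69D replicates 1 and 3 and WT replicates 1 and 2.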

How the data were processed

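Nuclei of eye imaginal discs were sequenced after depletion of ribosomal RNA in 3 GMR>Rh-1G69D and 3 WT samples. Reads were mapped by the authors to dm6 (STAR 2.6.1d) and assigned to genes (featureCounts of Subread 1.6.3), and the counts were deposited raw. The authors also deposited normalized counts, a signal made by dividing each count by 1 size factor per sample, and FPKM, which divide by gene length and library total. The annotation release is not given in the sources used here. All 6 columns of each table were mapped to samples by genotype and replicate number.

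The members and gene lists were chosen with earlier results of these data known, and the groups by current name were made after the members' values were seen. CPM were computed from the raw counts over the total without symbols containing rRNA. The conditions were at least 5 CPM on average, a ratio of at least 2 and no overlap of the genotypes. Over the whole table, raw counts were compared in R 4.3.3 with edgeR 4.0.16 (filterByExpr, TMM, quasi-likelihood F test), with Benjamini-Hochberg adjustment over 11818 genes and a threshold of 0.05. The pipeline was tested on simulated data. Alternatives were other scalings, floors, ratios and filters, DESeq2 1.42.0, limma 3.58.1 on log2 of the normalized counts and FPKM, a replicate block, and each library left out. A two-sided exact permutation test of 3 against 3 samples cannot give a p under 0.1. Each sample was a separate pool of larvae, so p-values measure the spread between pools.

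Positions are from Ensembl annotation of dm6 and names from RefSeq (Release 6 plus ISO1 MT). Of the members, 170 were matched by symbol and 24 by locus tag. A rule set which genes to name with the value in every library. It covered the 12 members with the largest ratio, the 12 with the highest mean CPM and members with a descriptive name. It also covered neighbours within 20 kb, members with overlapping exons, and genes at each limit. Where this gave too many, ratios or counts are given. Some were left out above, among them CG7970, CG4390 and CG4646, with means of 80.4, 77.1 and 67.4 CPM in GMR>Rh-1G69D and 38.7, 37.8 and 29.6 CPM in WT. Sequences of the members were not analysed here. Plots were made in Python 3.11.15 (matplotlib 3.10.9).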

Additional observations from a re-analysis of the deposited data

How the results depend on the processing

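The number of members moved most without WT replicate 3 and with another ratio. Against 194, the conditions were met by 126 genes with TMM library sizes and by 126 with the deposited normalized counts, in both cases all of them members, by 489 with a ratio of 1.5, by 46 with a ratio of 3, and by 138 to 607 with 1 library left out, the highest without WT replicate 3. With the full total, FPKM, a floor of 2 or of 10 CPM, or no condition on overlap it was 181, 164, 243, 134 and 274. The median span of the genes that met the conditions stayed between 1079 and 1814 bases in all of these. The members' median log2 fold change was 1.04 to 1.44 over the alternative fits, and its sign was fixed by the selection. Over the whole table, genes higher were 146 and genes lower 440 with edgeR, 493 and 944 with DESeq2, 32 and 18 with limma on FPKM with a pseudocount of 0.1, 13 and 4 with a pseudocount of 1, 19 and 15 with limma on the normalized counts, and 54 to 1305 and 127 to 1199 with 1 library left out, the highest again without WT replicate 3. With the replicate block they were 253 and 481, and members called higher were 55. The correlation of deviations was -0.00246, 0.0744 and 0.162 between samples of the same replicate number. Between samples of different numbers it was -0.12 to 0.0357. With so few samples these values cannot decide whether the replicate numbers pair the samples. List genes higher were 6 with edgeR, 10 with DESeq2 and 4 to 18 with 1 library left out, and the 1 gene lower was 0 in each limma fit and 0 to 1 with 1 library left out. Among members, 36 were called with edgeR, 107 with DESeq2 and 4 to 7 with limma. Depth limits the members nearly absent from WT, whose ratio rests on at most 9 WT counts.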
